A study of Sus scrofa with 4 samples.

Results

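KPNA7 encodes an importin alpha, a receptor that carries proteins into the nucleus, and it was examined here with the other importin genes in porcine oocytes at the second meiotic metaphase (M II). Members were all rows of the read-count table whose symbol starts with KPNA or KPNB, which gave 4 of 4381 listed genes, namely KPNA7, KPNA2, KPNA3 and KPNA1. KPNA7 was chosen by its read count in these same libraries, so its high level is given as a description without a test. The other importin alpha genes (KPNA4, KPNA5 and KPNA6) and importin beta 1 (KPNB1) were not analysed here. Of the 8 KPNA and KPNB genes in porcine RefSeq (assembly Sscrofa11.1), the 4 analysed are the 4 with a curated transcript. The table as a whole follows the same line, listing 99.1% of the 3983 protein-coding genes that have a curated transcript and 0.192% of the 16680 that have predicted transcripts only.

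The 4 libraries were 2 from control oocytes and 2 from oocytes in which SIRT6, a nuclear deacetylase and ADP-ribosyltransferase, was inhibited. The inhibitor was SIRT6-IN-1, a cell-permeable compound dissolved in DMSO and added to the maturation medium, at 100 μM in the experiments that followed a dose test. Whether the controls received DMSO is not given in the sources used here. All oocytes came from abattoir ovaries and matured for 42 to 44 h inside their cumulus cells. The methods mention 100 oocytes per group, and how many went into each library is not given in the sources used here. Nothing says whether the 2 libraries of a group came from separate cultures, so the p-values measure only the spread between these libraries, which may be technical.

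In the classical import pathway, importin alpha binds the nuclear localization signal of a cargo protein and hands the complex to importin beta 1, which carries it through the nuclear pore. RAN bound to GTP releases the cargo inside the nucleus, and the exportin CSE1L returns importin alpha to the cytoplasm. Oocytes at M II have no nuclear envelope, and in dividing cells importins are known for holding spindle assembly factors inactive away from the chromosomes. KPNA7 is known as an importin alpha of oocytes and early cleavage embryos, and is the nearest relative of KPNA2 in the family. KPNA3 belongs to another branch with KPNA4, and KPNA1 to the branch of KPNA5 and KPNA6.

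The read counts summed to 4646129 in control 1 and 3405960 in control 2, and to 3239200 in SIRT6-inhibited 1 and 4972602 in SIRT6-inhibited 2. The limit of detection, taken as 3 counts, lay between 0.603 and 0.926 CPM, where CPM is the count scaled to a common library total. All 12 listed oocyte markers had counts in every library, led by the oocyte linker histone H1FOO, and their summed level was 50261 and 54268 normalized CPM in controls and 50129 and 50041 in SIRT6-inhibited oocytes. H1FOO and BMP15 made up 75.3% to 85.8% of that sum, while DDX4, at 2.50 to 15.5 normalized CPM, and NOBOX, at 29.6 to 90.6, were the lowest of the list. Of 17 listed cumulus and granulosa cell markers, TNFAIP6, FSHR, LHCGR and AMH had 0 counts in all 4 libraries. The cumulus list summed to 219 and 251 normalized CPM in controls and to 109 and 265 in SIRT6-inhibited oocytes, led by VCAN at 38.8 to 142, and the oocyte sum was 189-fold to 461-fold above it. Among the 6 listed blood and stromal markers, 3 had 0 counts throughout, and PECAM1 had the highest mean, with 14.9 to 31.2 normalized CPM, followed by COL1A2 with 11.3 to 17.1. In edgeR's quasi-likelihood test and in DESeq2's Wald test 0 marker genes had an adjusted p under 0.05, beside 0% and 1.55% of all tested genes. At an unadjusted p in edgeR's test under 0.05 there were 2 of the 12 oocyte markers tested, GDF9 and ZP2, 0 of 8 cumulus markers and 0 of 2 blood and stromal markers, beside 9.05% of all tested genes. GDF9 and ZP2 were lower in the SIRT6-inhibited libraries, at log2 fold changes of -1.65 for GDF9 (edgeR adjusted p = 0.469) and -0.37 for ZP2 (0.510). Over the 12 oocyte markers 7 were lower and 5 higher. The ZP2 log2 fold change was -0.26 without control 2 and -0.24 without SIRT6-inhibited 2. DESeq2 called 1 of the 12 oocyte markers at an unadjusted p under 0.05, which was ZP2, and 0 of the other markers, beside 9.93% of all tested genes. The size of the GDF9 difference depended on the libraries. Its log2 fold change was -0.95 without control 2, -2.13 without control 1, -2.46 without SIRT6-inhibited 1 and -1.14 without SIRT6-inhibited 2. Of the fits to all 4 libraries, GDF9 passed the adjusted threshold in edgeR with the replicate number added as a block. In that fit (replicate block) its log2 fold change was -1.68 and its edgeR adjusted p was 0.00398. With all 4 libraries GDF9 also passed with those numbers crossed between groups, and without the filter on low counts. Its adjusted p was 6.71e-26 in edgeR's test without the filter and 0.510 in DESeq2's Wald test.

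KPNA7 ranked 3 by read count among all listed genes in each of the 4 libraries. A longer transcript collects more reads, and transcript lengths were not used here, so this and every other order of genes is one of read counts and not of molecules. KPNA7 is annotated in RefSeq at chr3:6167382-6201282 of Sscrofa11.1, with 0 other annotated genes overlapping its span. Control libraries 1 and 2 held 130410 and 91201 counts, and SIRT6-inhibited libraries 1 and 2 held 88679 and 139063. As a share of the library these are 2.81% and 2.68% in controls and 2.74% and 2.80% after inhibition. The highest and the lowest of these shares differed 1.05-fold, and the groups overlapped. Exact binomial 95% intervals ran from 2.79% to 2.82% in control 1 and from 2.66% to 2.69% in control 2. The binomial intervals and the detection limits given here cover only counting error, since reads copied by amplification are not separate molecules.

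**Figure D1:**
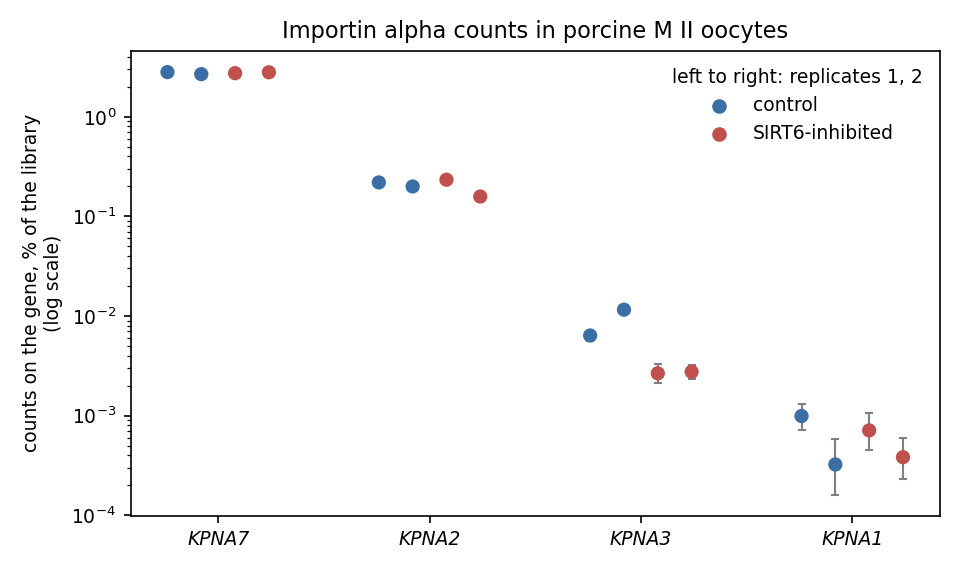
Counts on each importin alpha gene as a percentage of the library total, on a log axis, for the 2 control (blue) and 2 SIRT6-inhibited (red) libraries, with bars for the exact binomial 95% interval (hidden by the point where narrow). KPNA7 lies between 2.68% and 2.81% in all 4 libraries, KPNA2 between 0.158% and 0.233%, and both KPNA3 points of SIRT6-inhibited oocytes lie below both control points.

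SIRT6-inhibited oocytes did not differ detectably from controls in KPNA7. Normalized CPM, which are counts over the library total scaled by the trimmed mean of M-values (TMM), were 28157 and 25674 in controls and 27551 and 28963 after inhibition. The libraries of the groups overlapped, with control 2 lowest and SIRT6-inhibited 2 highest. The group means were 26916 ± 1756 and 28257 ± 998 normalized CPM (SD, n = 2 each). The log2 fold change was 0.07 (SE 0.08, edgeR's quasi-likelihood test, adjusted p = 0.956). Its 95% interval ran from 0.916-fold to 1.20-fold, and the data do not tell changes within that range apart. The size depended on the libraries and on the scaling. It was 0.10 without SIRT6-inhibited 1, 0.03 without SIRT6-inhibited 2 and 0.01 by library totals. Without control 1 the log2 fold change was 0.13, with an unadjusted edgeR p of 0.0455, and without control 2 it was 0.00057, while adjusted p over 12 alternative fits lay between 0.835 and 0.9998. In bulk libraries such as these, fewer cells carrying a transcript and less of it per cell cannot be told apart.

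As background for these tests, 0 of 2387 tested genes (0%) had an adjusted p under 0.05 in edgeR's quasi-likelihood test, against 37 (1.55%) in DESeq2's Wald test. That edgeR count depended on the libraries, being 77 without SIRT6-inhibited 1, 25 without SIRT6-inhibited 2, 1 without control 2 and 0 without control 1. At an unadjusted p under 0.05 edgeR called 216 genes (9.05%). Of these, 143 were lower in SIRT6-inhibited oocytes (5.99% of all tested) and 73 higher. Without control 2 that excess of lower calls was nearly lost, and the median log2 fold change was 0.02. Groups stood apart without overlap for 40.1% of tested genes, and 22.2% did so with SIRT6-inhibited oocytes lower. All 4 importin alpha genes passed the filter on low counts. Of these, 0 had an adjusted p under 0.05 in edgeR's or DESeq2's test, 1 had an unadjusted one and 1 did not overlap between groups, which was KPNA3 in both cases. The unadjusted count depended on the controls, and the KPNA3 log2 fold change was -1.21 without control 2 and -2.01 without control 1. The members' median log2 fold change was -0.14, and the median of all tested genes was -0.04.

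KPNA2, the relative of KPNA7 that is found in most dividing cells, took the second place by read count among the 4 listed importin alpha genes. It is annotated at chr12:14283092-14296749, and its counts were 10180 and 6796 in controls and 7557 and 7863 in SIRT6-inhibited oocytes. Normalized CPM were 2198 and 1913 in controls and 2348 and 1638 after inhibition, so the SIRT6-inhibited libraries held both the highest and the lowest value. The log2 fold change was -0.05 (SE 0.18, edgeR adjusted p = 0.992), and its 95% interval ran from 0.716-fold to 1.31-fold. Its sign rested on single libraries, being 0.19 without SIRT6-inhibited 2, 0.050 without control 1 and -0.33 without SIRT6-inhibited 1.

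KPNA7 reads outnumbered KPNA2 reads 12.8-fold and 13.4-fold in controls 1 and 2, and 11.7-fold and 17.7-fold in SIRT6-inhibited libraries 1 and 2. The last of these libraries stood apart from the other 3, and held the lowest KPNA2 and the highest KPNA7 value in normalized CPM. KPNA7 thereby held 92.5% and 92.7% of all counts on the 4 importin alpha genes in controls and 92.0% and 94.5% after inhibition, a mean of 92.6 ± 0.105% against 93.3 ± 1.77% (SD, n = 2 each). The share is a description and was not tested, because KPNA7 was selected on its level. By read count KPNA7, KPNA2, KPNA3 and KPNA1 followed each other, and the ranges of neighbouring genes over the 4 libraries did not overlap.

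KPNA3, an importin alpha known for carrying NF-κB subunits among other cargoes, was the member that was lower in both SIRT6-inhibited libraries. It is annotated at chr11:17948210-18033818. Counts were 296 and 394 in controls and 86 and 137 after inhibition, or 63.9 and 111 normalized CPM against 26.7 and 28.5. The lower control was 2.24-fold above the higher SIRT6-inhibited library, while the controls differed 1.74-fold from each other and the SIRT6-inhibited libraries 1.07-fold. The group means were 87.4 ± 33.2 and 27.6 ± 1.28 normalized CPM (SD, n = 2 each). The log2 fold change was -1.66 with a standard error of 0.43, which is 0.317-fold with a 95% interval from 0.156-fold to 0.643-fold. The unadjusted p of edgeR's quasi-likelihood test was 0.00671, and it did not pass adjustment over all genes (adjusted p = 0.460). Adjusted p ranged from 0.0596 to 0.950 over the 12 alternative fits.

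The KPNA3 difference was smaller without control 2. Without that library the log2 fold change was -1.21 and the unadjusted edgeR p was 0.0778, while without control 1 it was -2.01 with an unadjusted p of 0.00554. Within each library there were 441 and 231 KPNA7 counts for each KPNA3 count in controls and 1031 and 1015 after inhibition. This ratio restates the same KPNA3 values, since the KPNA7 share of the library was steady. Of the 8 cumulus markers tested, 4 had no overlap between groups, beside the 40.1% of all genes. INHBA, PGR and PTGS2 lay lower and CYP11A1 higher in both SIRT6-inhibited libraries. PTGS2 and CYP11A1 had few reads. Counts of PTGS2 were 22 and 12 in controls and 0 and 0 after inhibition, and those of CYP11A1 were 0 and 9 against 13 and 56. The sum of the cumulus list, 219 and 251 normalized CPM in controls and 109 and 265 after inhibition, overlapped between groups. By sign, 6 of the 8 were lower and 2 higher. Their median log2 fold change was -0.51, against -0.04 for all tested genes. The part of cumulus RNA in the KPNA3 difference was not tested. How reads that match more than 1 gene were counted is not given in the sources used here, which matters for KPNA3 because KPNA4 is a close paralogue and 1 annotated pseudogene overlaps its span.

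KPNA1 had the lowest counts of the members. They were 46 and 11 in controls and 23 and 19 in SIRT6-inhibited oocytes, or 9.93 and 3.10 against 7.15 and 3.96 normalized CPM. The controls enclosed both SIRT6-inhibited libraries. The log2 fold change was -0.23 (SE 1.55, edgeR adjusted p = 0.992), and its 95% interval, from -3.94 to 3.47, leaves the direction undetermined. KPNA1 is annotated at chr13:138045083-138100830, where 1 long non-coding RNA gene overlaps it.

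**Figure D2:**
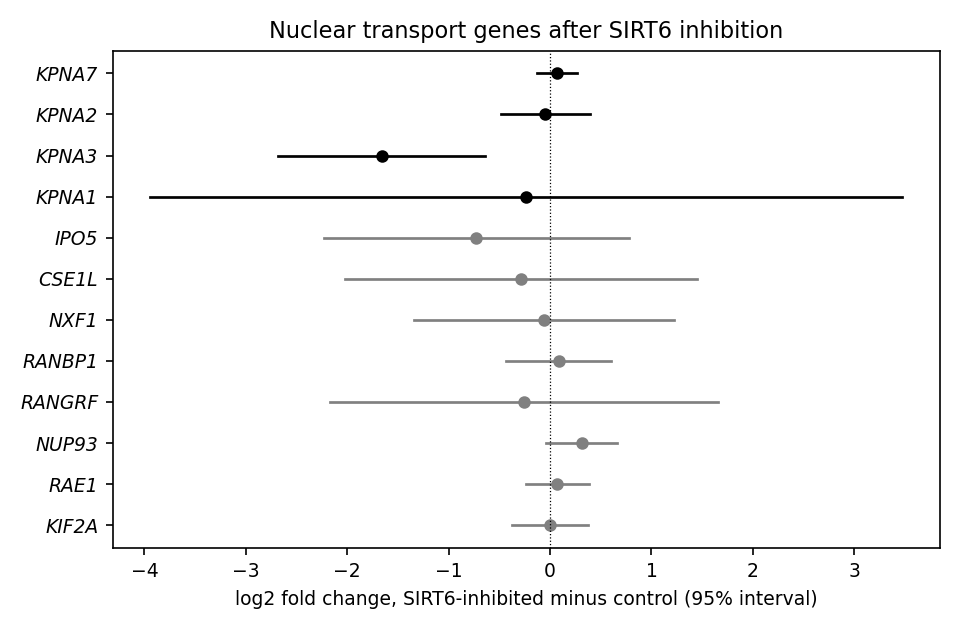
Log2 fold change of SIRT6-inhibited against control oocytes with its 95% interval from edgeR's quasi-likelihood fit, for the 4 importin alpha genes (black) and 8 other nuclear transport genes (grey). The interval of KPNA7 is the narrowest, from -0.13 to 0.27, and KPNA3 is the gene whose interval does not include 0, from -2.68 to -0.64.

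Of 68 genes in lists of other import receptors, exportins, Ran cycle proteins, nucleoporins and importin-held spindle factors, 8 were analysed here and all 8 passed the filter. These were 1 of 11 import receptors, 2 of 10 exportins, 2 of 8 Ran cycle proteins, 2 of 31 nucleoporins and 1 of 8 spindle factors. In edgeR's quasi-likelihood test 0 of these 8 had an adjusted p under 0.05 and 0 had an unadjusted one, and DESeq2's Wald test likewise gave 0 and 0. Over all tested genes the unadjusted share was 9.05% in edgeR and 9.93% in DESeq2, so 0 of 8 is near the background and is no result about these genes. The fold changes were higher for 4 and lower for 4, with a median log2 fold change of -0.03 against -0.04 for all tested genes.

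IPO5, an import receptor for ribosomal proteins and histones that binds many cargoes without importin alpha, had 56.1 and 23.6 normalized CPM in controls and 21.1 and 27.1 after inhibition. Control 1 alone was high, and without it the log2 fold change moved from -0.73 to 0.02 (edgeR adjusted p = 0.906 with all libraries). CSE1L, which recycles importin alpha out of the nucleus, had 21.8 and 50.1 normalized CPM in controls and 43.5 and 15.6 in SIRT6-inhibited oocytes. Each group held a high and a low library, and the log2 fold change was -0.28 (SE 0.72, edgeR adjusted p = 0.989). NXF1, the principal mRNA export receptor, had 37.4 and 47.0 normalized CPM in controls and 26.4 and 54.4 after inhibition, with a log2 fold change of -0.06 (SE 0.54). For the Ran cycle, RANBP1, which helps to hydrolyse the GTP on RAN, stood at 239 and 201 normalized CPM in controls and 206 and 261 after inhibition. Its log2 fold change was 0.08 with a standard error of 0.22, and that of RANGRF, a RAN-binding protein, was -0.25 with a standard error of 0.80.

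NUP93, a scaffold protein of the nuclear pore, was the transport gene without overlap between groups, which makes 1 of 8 against 40.1% of all tested genes. It had 495 and 580 normalized CPM in controls and 628 and 706 in SIRT6-inhibited oocytes, so both SIRT6-inhibited libraries were above both controls. Its log2 fold change of 0.31 had a standard error of 0.15 and did not pass either threshold (edgeR unadjusted p = 0.0750, adjusted p = 0.583). RAE1, an mRNA export factor of the pore that also acts at the mitotic spindle, was the most abundant of the 8 by read count. It had 3093 and 2559 normalized CPM in controls and 2813 and 3133 after inhibition, with a log2 fold change of 0.07 and a standard error of 0.13. For KIF2A, a microtubule-depolymerizing kinesin of spindle poles, the log2 fold change was 0.0031 (SE 0.16), and its sign turned with the scaling.

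By mean normalized CPM, KPNA7 was preceded by DNMT1, the maintenance DNA methyltransferase, and WEE2, the oocyte kinase that restrains maturation promoting factor. The next genes were H1FOO, BMP15, a growth factor secreted by the oocyte, and PCNA, the sliding clamp of DNA replication. KPNA7 read counts exceeded those of H1FOO in all 4 libraries, and the highest H1FOO value, 24986 normalized CPM in control 1, was below the lowest KPNA7 value, 25674 in control 2. WEE2 lay above KPNA7 in all 4 libraries. Both SIRT6-inhibited libraries were above both controls for WEE2, at 41659 and 38139 normalized CPM in controls and 45706 and 48200 after inhibition, and for DNMT1, at 178415 and 180869 in controls and 190805 and 194280 after inhibition. Such a lack of overlap was seen for 40.1% of all tested genes. The log2 fold change of WEE2 was 0.23 (SE 0.08) and missed the threshold in edgeR's quasi-likelihood test (adjusted p = 0.487). DESeq2's Wald test gave an adjusted p of 0.0200 for WEE2, and over the 12 alternative fits the adjusted p lay between 0.0200 and 0.950. Log2 fold changes of the other 4 neighbours, which also missed it, were 0.10 for DNMT1, 0.0086 for H1FOO, 0.049 for BMP15 and -0.0033 for PCNA, and apart from DNMT1 their signs turned with the scaling.

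**Figure D3:**
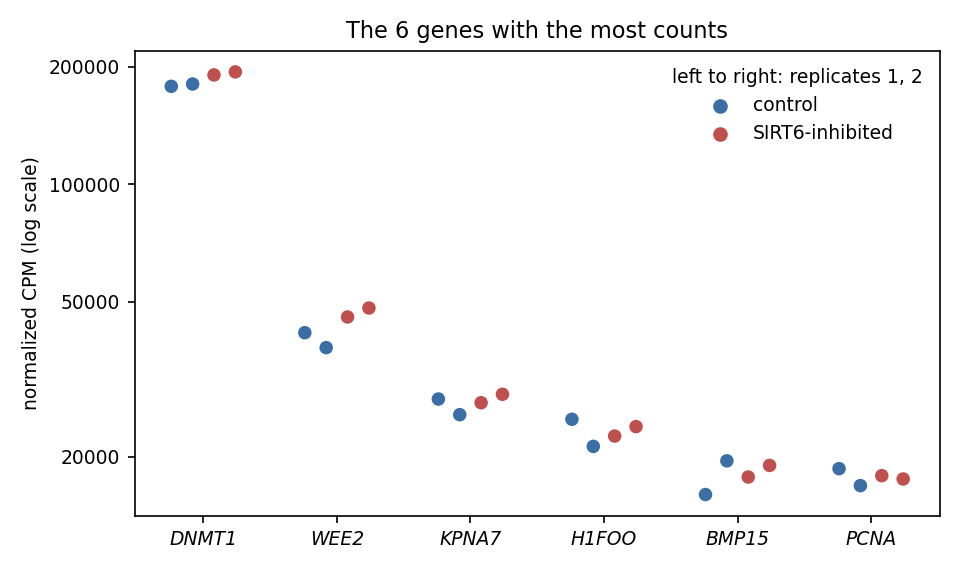
Normalized CPM on a log axis for the 6 genes with the highest mean, with control libraries in blue and SIRT6-inhibited libraries in red. KPNA7 lies between WEE2 and H1FOO, at 25674 to 28963 normalized CPM, and its libraries overlap between groups.

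KPNA7 also varied little between libraries. The SD of log2(normalized CPM + 1) over the 4 libraries was 0.0743 for KPNA7, against a median of 0.132 for the 100 genes with the highest mean and 0.467 for all 2387 tested genes. Ordered from the smallest SD, KPNA7 was number 12 of those 100 genes and number 55 of all tested genes. The other members spread more, with an SD of 0.230 for KPNA2, 0.649 for KPNA1 and 0.965 for KPNA3. The SD is taken over both groups, so that of KPNA3 includes the gap between them. This ordering was made after the values were seen and is a description.

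**Figure D4:**
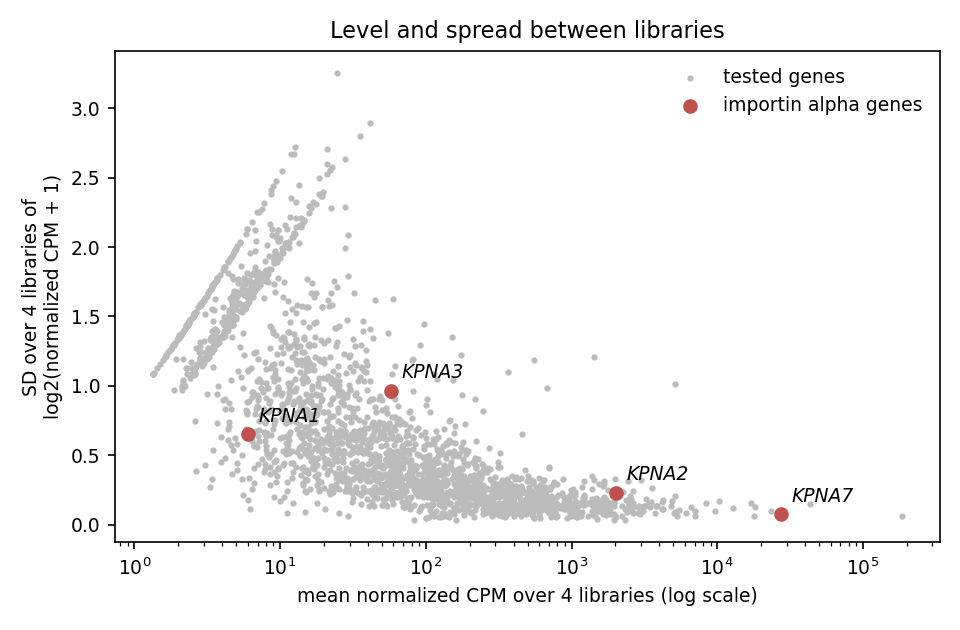
Each point is 1 of the 2387 tested genes, with its mean normalized CPM over the 4 libraries (log axis) and the SD over the 4 libraries of log2(normalized CPM + 1). KPNA7, at 27586 normalized CPM and an SD of 0.0743, lies at the lower right, and KPNA3, at 57.5 normalized CPM, has an SD of 0.965.

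Genes with the pattern most like that of KPNA7 were sought over the 4 libraries among 1835 others with a mean of at least 10 normalized CPM. Likeness was the root mean square difference between profiles of log2(normalized CPM + 1) centred on each gene's mean. The nearest were UGP2, an enzyme of UDP-glucose synthesis, at a difference of 0.0138, and DNAJA1, a co-chaperone of HSP70, at 0.0148. They were followed by CDK5R1, an activator of CDK5, the collagen receptor DDR1 and the endoplasmic reticulum calcium channel TMCO1, at differences between 0.0199 and 0.0240. Each of the 5 was, like KPNA7, lowest in control 2 and highest in SIRT6-inhibited 2. They were chosen by their likeness over these libraries, so this shared order is no separate result. With Pearson's r as the measure, 0 of these 5 were among the nearest 5, so the names depend on the measure.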

How the data were processed

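RNA of 4 M II oocyte libraries, 2 per group, was read as 150-bp pairs. The labels name Smart-seq2 amplification followed by a NEBNext Ultra library with random-primed reverse transcription, and the study's methods name the NEBNext Ultra library alone. Values were used as deposited, in whole-number read counts per gene symbol that the authors had not normalized. The submitters' processing notes list TopHat2 2.0.13, Cufflinks 2.2.1, Cuffnorm and Cuffdiff with the builds susScr11 and mm10, without roles. The counting tool, annotation and strand setting are not given in the sources used here, so antisense reads cannot be separated.

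Counts were analysed with R 4.3.3, edgeR 4.0.16 and DESeq2 1.42.0. Genes were kept by filterByExpr (minimum count 10, minimum total 15) and scaled by TMM factors from 0.966 to 1.04. Groups were compared by the quasi-likelihood test of edgeR, and p-values were adjusted over 2387 genes by the Benjamini-Hochberg method. Standard errors are the log2 fold change over the square root of F. The procedure was tested on simulated data. Members and lists were chosen with earlier results of these data known. Named genes were all KPNA and KPNB symbols, members of the nuclear transport lists with an unadjusted p under 0.05 or among the 2 most abundant, the 5 genes most like KPNA7, up to 3 genes on either side of it by level, SIRT6 and the markers. RefSeq (Sscrofa11.1) served for names and positions, and 98.1% of symbols matched. Sequences were not used.

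Alternatives were RLE factors, library totals, totals without the 10 most abundant genes, no filter, a minimum of 10 counts in every library, the replicate block, DESeq2, each library left out, another pseudocount (0.5) or Pearson's r for likeness, and KPNA2 left out of the share. Crossed replicate numbers, the counts of members called under each alternative, and the alternatives for genes other than the members were added after seeing the data.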

Additional observations from a re-analysis of the deposited data

How the results depend on the processing

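The log2 fold change of KPNA7 stayed above 0 and short of an adjusted p of 0.05 in all 12 alternatives, from 0.00057 to 0.13 with a library left out and from 0.01 to 0.09 otherwise, and was 0.07 with the replicate block. With 1 library left in a group, that library is assumed to vary like the other group. KPNA3 stayed below 0 in all 12 alternatives, with an unadjusted p under 0.05 in 11. NUP93, DNMT1, WEE2, GDF9, ZP2 and 4 of the 5 genes most like KPNA7 also kept their sign. With a library left out, signs changed for KPNA1 (-0.84 to 0.83), KPNA2 (-0.33 to 0.19), CSE1L (-1.20 to 0.43), IPO5 (-1.22 to 0.019), KIF2A (-0.19 to 0.17), NXF1 (-0.68 to 0.36), RAE1 (-0.062 to 0.21), RANBP1 (-0.099 to 0.24), RANGRF (-0.73 to 0.44), DNAJA1 (-0.016 to 0.11), H1FOO (-0.11 to 0.12), BMP15 (-0.096 to 0.19) and PCNA (-0.078 to 0.062). By library totals KIF2A (-0.054), DNAJA1 (-0.0069), H1FOO (-0.048) and BMP15 (-0.014) fell below 0. KIF2A was below 0 without a filter (-3.3e-05), with the replicate block (-0.0067) and with crossed numbers (-0.0072). PCNA was above 0 with RLE factors (0.016), with DESeq2 (0.016) and at 10 counts in every library (0.00061). Genes with an adjusted p under 0.05 numbered 43 without a filter, 2 at 10 counts in every library, 37 with DESeq2, 6 with the replicate block and 0 to 77 with a library left out. Same-numbered libraries deviated with a correlation of -0.123, and crossing the numbers, chosen after seeing the data, gave 2 such genes. Of the fits to all 4 libraries, GDF9 passed that threshold without a filter and with either block. Its log2 fold change lay between -2.46 and -0.95 with a library left out. At an unadjusted p the genes numbered 111 to 302 with a library left out, and importin alpha genes 0 to 2. Without KPNA2 the KPNA7 share of importin alpha counts was 99.8%. Pearson's r kept 0 of the 5 genes most like KPNA7. The cause of these changes was not tested. Shares per kilobase were not run, as no transcript length was used. KPNA1 had the lowest depth of the importins, with 11 to 46 counts in a library.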

Other observations

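The SIRT6 transcript itself was read at 0 and 42 counts in controls 1 and 2 and at 52 and 57 counts in SIRT6-inhibited libraries 1 and 2. The inhibitor acts on the protein, so these counts do not check the labels. Control 1 had no SIRT6 read, and its KPNA7 share of the library was the highest of the 4. A relation between these values was not tested.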
